A study of Arabidopsis thaliana with 6 samples.

Results

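The 105 genes described here are Arabidopsis genes that carry only a locus tag as their name in the gene table used. Their transcript level was at least 3-fold lower in rosettes of the catalase mutant cat2-2 after 24 h of treatment than before it. They are 105 of 11799 genes with only a locus tag, and of 13356 genes to which the gene table gives a probe set of their own. A gene was a member where its probe set with the highest mean named exactly 1 gene, its treated mean lay at least 3-fold below its untreated mean, and all 3 treated arrays lay below all 3 untreated arrays. A further 2 genes that met these conditions, AT4G30650 and AT5G03350, were left out. The members were thus chosen by the same treated against untreated values that are given below, so their differences are a description and carry no test.

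All samples were cat2-2 rosettes in the Col-0 background, which were grown on medium with sucrose under a long day. The treated group held 3 biological replicates, harvested at 22 days of age, 24 h after the plates had been sealed with parafilm against gas exchange and placed in continuous light, a change that the submitters call photorespiratory conditions. The untreated group held 3 biological replicates, harvested at 21 days, at 0 h, with the plates still under surgical tape and a long day. Each replicate pooled at least 15 rosettes, and the plates also held shr-6 cat2-2 plants, which were not analysed here. Every array is of the mutant, so whether a difference depends on the mutation was not tested, and the effects of sealing, continuous light and 1 day of age cannot be told apart. Transcript levels are RMA log2 values from ATH1 arrays, on which a difference of 1 is a 2-fold change, and 3 arrays per group limit the precision. Probe sets differ in how strongly they bind their transcript, so a level or percentile ranks probe-set signals and not the abundance of different genes' transcripts.

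In photorespiration, the oxygenation of ribulose bisphosphate by Rubisco gives phosphoglycolate, whose recycling runs through the peroxisome and releases hydrogen peroxide there. CAT2 is the main leaf catalase that removes this hydrogen peroxide, and cat2 mutants are a common model of peroxide stress from photorespiration. A locus tag, such as AT1G19960, names a gene by its species, its chromosome and its place in the order along that chromosome. The gene table used here gives the members no symbol, and 0 of the 105 have a synonym in words, so no role is stated for any of them and they are described by level, size of difference, evenness between arrays and neighbours.

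Among these genes the treated level was between 8.90% and 33.0% of the untreated level, with a median of 26.7%. The decreases ran from 3.03-fold in AT5G48460 to 11.2-fold in AT1G19960, with a median of 3.75-fold (log2 -1.91), while the median over all 22746 probe sets was log2 -0.01. Of the 105, 39 were lowered at least 4-fold, 16 at least 5-fold, 8 at least 6-fold and 3 at least 8-fold. The remaining 66 lay between 3-fold and 4-fold. Across all locus-tag genes, 107 (0.907%) met the conditions before the 2 were left out, a share that the rule itself sets. Of all features tested, 5059 of 22746 probe sets (22.2%) were called lower and 4420 (19.4%) higher at an adjusted p of 0.05 (limma, Benjamini-Hochberg), and in 26.7% of probe sets all treated arrays lay below all untreated ones. Of all calls 53.4% were lower in the values as deposited, and 39.9% with the arrays anchored on the hybridization control sets. That anchoring raised every difference by 0.11 on the log2 scale. It shifted each array on its own, so it also changed the spread within groups. The values below are thus relative to the scale on which RMA set the arrays.

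AT1G19960 had the largest decrease, with log2 levels of 6.46, 6.40 and 6.41 in the treated arrays, against 9.73, 10.02 and 9.99 in the untreated arrays. Its treated mean was 6.42 ± 0.03 and its untreated mean 9.91 ± 0.16 (SD, n = 3 each), which is 11.2-fold lower. The lowest untreated array stood 3.27 above the highest treated array, the widest gap of any member. Its treated mean stood at the 52.5th percentile of probe sets, against the 93.1th percentile for its untreated mean. AT1G31690 followed with 5.07, 5.20 and 5.52 in the treated arrays, against 8.18, 8.78 and 7.97 in the untreated arrays, an 8.28-fold decrease. Its untreated arrays spread over 0.81, wider than those of the other members above 8-fold. AT1G54820 was 8.15-fold lower, with 6.84, 6.95 and 6.87 in the treated arrays, against 9.91, 9.97 and 9.86 in the untreated arrays. Both groups were tight in this gene, with an SD of 0.06 in treated and of 0.05 in untreated arrays.

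The next pair had untreated signals above the 98th percentile of probe sets. AT3G22240 had 8.98, 8.97 and 9.07 in the treated arrays, against 11.69, 12.11 and 12.13 in the untreated arrays, and was 7.83-fold lower. AT5G16030 had 9.20, 8.92 and 8.90 in the treated arrays, against 12.05, 11.77 and 11.99 in the untreated arrays, and was 7.63-fold lower. Even in the treated arrays both kept a mean above the 86th percentile of probe sets. AT1G13650 was 7.08-fold lower, with 6.75, 6.57 and 6.59 in the treated arrays, against 9.41, 9.57 and 9.40 in the untreated arrays. AT4G02850 was 6.21-fold lower, with 6.04, 6.44 and 6.40 in the treated arrays, against 8.76, 9.06 and 8.95 in the untreated arrays. In AT4G02850 treated replicate 1 was the low array, in AT1G13650 treated replicate 1 was the high one, and in neither did the groups come near each other.

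Of the remaining 5 among the 12 largest decreases, AT1G29660 was 6.07-fold lower, with 7.90, 7.95 and 8.04 in the treated arrays, against 10.40, 10.65 and 10.63 in the untreated arrays. AT4G30660 was 5.86-fold lower, with 8.49, 8.37 and 8.76 in the treated arrays, against 10.89, 11.25 and 11.14 in the untreated arrays. Untreated replicate 1 was the lowest of its group in both genes, as in 58 of the 105 members. Among other locus-tag genes this array was lowest in 4348 of 11692. AT1G12845 was 5.60-fold lower, with 6.66, 6.61 and 6.50 in the treated arrays, against 8.97, 9.23 and 9.03 in the untreated arrays. AT3G56080, the dimmest of the 12, was 5.39-fold lower, with 5.03, 5.17 and 4.91 in the treated arrays, against 7.52, 7.58 and 7.31 in the untreated arrays. Its treated mean stood at the 35.4th percentile, and detection above background was not tested. AT5G50740 was 5.19-fold lower, with 7.05, 6.80 and 6.89 in the treated arrays, against 9.14, 9.54 and 9.19 in the untreated arrays. Its treated arrays lay within 0.26 of each other and untreated replicate 2 was the highest.

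**Figure D1:**
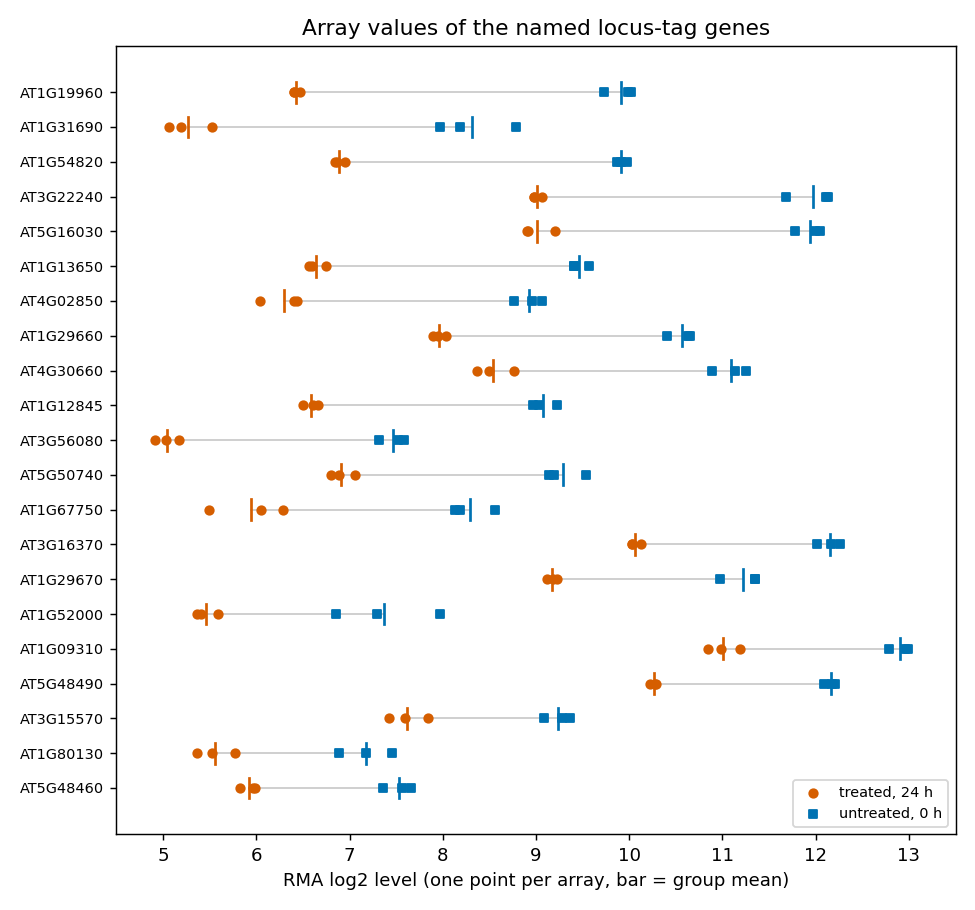
RMA log2 level of the 21 members named by rule, one row per gene in order of decrease, with 3 treated arrays (circles), 3 untreated arrays (squares) and the group means as bars. The groups stay apart in every row, as the rule required, by 3.27 in AT1G19960 at the top and by 1.11 in AT1G80130 near the bottom.

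Of the 4 members with the highest untreated signal, AT3G22240 was also among the 12 largest decreases and the other 3 were not. AT1G09310 had the highest untreated mean of all, at the 99.6th percentile, with 10.85, 10.98 and 11.19 in the treated arrays, against 12.78, 12.95 and 12.99 in the untreated arrays, a 3.74-fold decrease. AT5G48490 was lowered about as much, 3.73-fold, with 10.29, 10.27 and 10.22 in the treated arrays, against 12.09, 12.21 and 12.18 in the untreated arrays. AT3G16370 was 4.25-fold lower, with 10.03, 10.03 and 10.13 in the treated arrays, against 12.02, 12.17 and 12.27 in the untreated arrays. These 3 genes stood above the 93rd percentile in the treated arrays too.

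Over the 105 genes, the treated means ran from 4.02 to 11.0 with a median of 6.62, and the untreated means from 6.07 to 12.9 with a median of 8.61. Before treatment 102 of them lay above the median probe set and 31 above the 90th percentile. After treatment 66 lay above the median probe set, 7 above the 90th percentile and 17 below the 40th percentile. Other locus-tag genes, 11692 in number, had a median treated mean of 5.62 and a median untreated mean of 5.65. The rule used both means, so these levels are not a finding. Split into 3 sets of 35 by untreated level, the members had a median decrease of 3.65-fold in the dimmest set, 3.46-fold in the middle set and 3.84-fold in the brightest set.

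**Figure D2:**
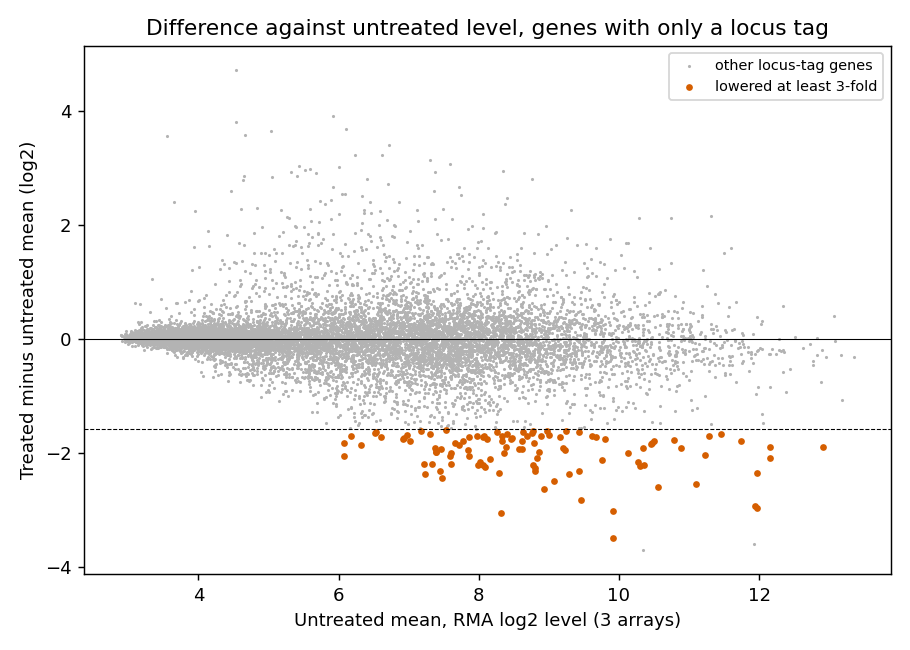
Treated minus untreated mean (log2) against untreated mean (RMA log2 level) for genes with only a locus tag, with the 105 members in orange and the dashed line at a 3-fold decrease. The members span untreated levels from 6.07 to 12.9, and the 2 grey points below the line are AT4G30650 and AT5G03350, which were left out.

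At the dim end stood 4 members whose mean over all arrays lay among the dimmest 40% of probe sets: AT3G01960, AT5G41140, AT5G03130 and AT1G54200. Their treated means were 4.02, 4.25, 4.44 and 4.46, against untreated means of 6.07, 6.08, 6.31 and 6.17. These treated levels lay between the 16.1th and the 25.8th percentile of probe sets. The measured decreases of 3.27-fold to 4.14-fold rest on these dim treated values, whose distance from background was not tested.

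The 8 genes lowered more than 6-fold are the first 8 named above. The 8 lowered between 5-fold and 6-fold are AT4G30660, AT1G12845, AT3G56080, AT5G50740, AT2G40435, AT1G67750, AT1G66100 and AT2G43550, at up to 5.86-fold. Between 4-fold and 5-fold stood 23 genes with decreases of 4.02-fold to 4.99-fold: AT3G56060, AT5G44400, AT5G07030, AT4G01460, AT2G34620, AT1G78170, AT3G13980, AT4G24780, AT4G34220, AT5G01790, AT4G26790, AT1G65900, AT1G21440, AT5G02890, AT5G45950, AT1G10640, AT5G66590, AT3G16370, AT4G28780, AT3G01960, AT3G14760, AT1G29670 and AT1G22160. These 23 covered almost the whole range of levels, with untreated means from 6.07 to 12.1.

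Of the 66 genes lowered less than 4-fold, 24 had decreases of 3.54-fold to 3.99-fold: AT5G48900, AT1G04680, AT5G45670, AT5G54970, AT2G44940, AT3G56370, AT5G45650, AT3G16800, AT1G68780, AT5G44530, AT1G52000, AT1G49750, AT2G05790, AT1G18360, AT3G07010, AT1G09310, AT5G48490, AT5G03130, AT3G21950, AT4G14270, AT5G54630, AT3G18050, AT5G41140 and AT2G43800. Another 23 had decreases of 3.26-fold to 3.48-fold: AT2G41090, AT2G16990, AT4G15830, AT5G44680, AT1G28400, AT3G53190, AT1G09750, AT4G18970, AT1G27210, AT4G33550, AT1G78060, AT5G49100, AT1G75900, AT5G05960, AT3G09540, AT4G23820, AT5G44720, AT5G01015, AT1G54200, AT3G61820, AT3G02640, AT2G10940 and AT1G60590. The last 19, at 3.03-fold and above, were AT1G76020, AT1G56720, AT1G27120, AT5G16250, AT1G27030, AT3G53980, AT4G29020, AT2G25625, AT3G13690, AT1G03820, AT4G30020, AT2G36430, AT5G66420, AT4G30400, AT1G78210, AT2G28790, AT3G15570, AT1G80130 and AT5G48460.

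Just inside the threshold, AT3G15570 was 3.08-fold lower, AT1G80130 3.07-fold and AT5G48460 3.03-fold. AT1G80130 had 5.37, 5.78 and 5.52 in the treated arrays, against 7.18, 7.45 and 6.89 in the untreated arrays, and its groups were the closest of all members, with a gap of 1.11. AT5G48460 had 5.82, 5.99 and 5.97 in the treated arrays, against 7.36, 7.66 and 7.56 in the untreated arrays. AT3G15570 had 7.60, 7.84 and 7.42 in the treated arrays, against 9.36, 9.09 and 9.27 in the untreated arrays. Just outside it, with groups that did not overlap either, AT5G51560 was 3.00-fold lower (log2 -1.583), AT1G78020 2.98-fold and AT3G60380 2.96-fold. The values on the 2 sides of the threshold differ by less than the spread between arrays, so membership there is a matter of the rule. No locus-tag gene reached a 3-fold lower mean with overlapping groups.

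Arrays of 1 group lay close together in most members. The median SD was 0.11 in treated arrays and 0.14 in untreated arrays, against 0.09 and 0.10 in the other locus-tag genes. The SD was larger in the treated arrays for 41 of 105 members, and for 5297 of the 11692 other locus-tag genes. In all 105 the gap between the groups was at least 1 on the log2 scale, with a median of 1.68, and in all of them it was wider than the range within either group. The rule asked for groups that do not overlap and for a 3-fold difference, so these gaps follow in large part from it and are not a finding. The widest range within a group belonged to AT1G52000, with 5.37, 5.41 and 5.59 in the treated arrays, against 6.86, 7.97 and 7.29 in the untreated arrays, and it was the one member whose arrays of 1 group spread over more than 1. Its log2 difference was -1.92, and -1.62 without untreated replicate 2. AT1G67750 varied most among treated arrays, with 5.50, 6.29 and 6.05, against 8.19, 8.56 and 8.13 in the untreated arrays, and was 5.10-fold lower.

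The members tended to be highest in the same untreated array. Untreated replicate 2 was the highest of its group in 71 of 105 members, while replicate 3 was highest in 19 and replicate 1 in 15. Over the members its median deviation from the group mean was 0.11, against -0.08 in replicate 1 and -0.01 in replicate 3. Among other locus-tag genes the same array was highest in 4114 of 11692, with a median deviation of 0.01. The treated arrays showed no such order, with 34, 41 and 30 members highest in replicates 1, 2 and 3. Without untreated replicate 2 the rule gave 93 members, all of them among the 105, and the median log2 difference of the 105 was -1.86. The rule used these untreated values, so the order of the untreated arrays over the members is not a finding. Why the members stood higher in untreated replicate 2 was not tested.

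**Figure D3:**
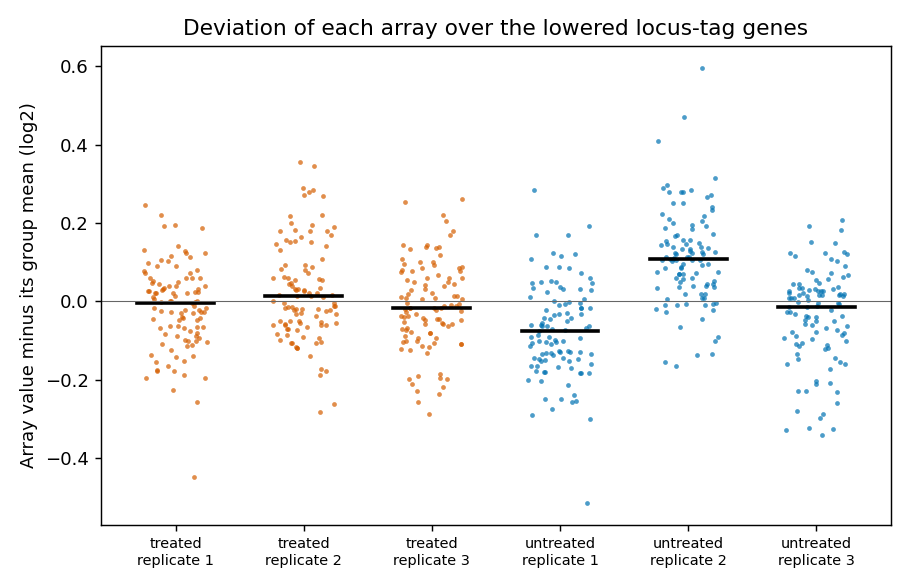
Deviation of each array from the mean of its group (log2), one point per member, for treated replicates 1 to 3 and untreated replicates 1 to 3, with the median as a bar. The median is 0.11 in untreated replicate 2 and between -0.08 and 0.01 in the other 5 arrays.

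No member's probe set bore the suffix that the array gives to probe sets matching several genes. A second probe set naming the gene alone existed for 2 members. In AT5G50740 it had a treated mean of 5.47 and an untreated mean of 7.74, a log2 difference of -2.27, close to the -2.38 of the probe set used. In AT1G31690 it was dim, with a treated mean of 3.79 and an untreated mean of 4.95, and its log2 difference of -1.16 was far smaller than the -3.05 of the probe set used. These are the same arrays and the same contrast, and they count as description.

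The locus tags place 34 members on chromosome 1, 12 on chromosome 2, 19 on chromosome 3, 15 on chromosome 4 and 25 on chromosome 5. As shares of the locus-tag genes measured on each chromosome these are 1.11%, 0.619%, 0.785%, 0.883% and 0.935%. The order of coding genes was taken from the RefSeq annotation of TAIR10.1, used only to find neighbours. In this order 1 pair of members lay side by side, AT1G29660 and AT1G29670. AT1G29670 had 9.22, 9.12 and 9.18 in the treated arrays, against 10.97, 11.35 and 11.34 in the untreated arrays, and was 4.13-fold lower, while AT1G29660 was 6.07-fold lower. Both genes had untreated replicate 1 as the low array of its group, which held for 58 of the 105 members. The same held for 4348 of 11692 other locus-tag genes. AT4G30660 lies next to AT4G30650, the excluded gene, which was 13.1-fold lower.

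A further 5 pairs of members lay within 5 coding genes of each other, and these were looked up after the values were known. AT3G56060 and AT3G56080, 2 steps apart, were 4.99-fold and 5.39-fold lower. AT5G45650 and AT5G45670, also 2 steps apart, were 3.84-fold and 3.97-fold lower. The other pairs were AT5G44680 with AT5G44720, AT5G48460 with AT5G48490, and AT1G78170 with AT1G78210. In all, 12 of the 105 had another member within 5 steps.

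Most measured direct neighbours were not called lower. Of 210 neighbouring positions 105 held a measured gene, that is, a gene with a listed probe set of its own. Of these, 102 were neither members nor the excluded gene. Genes at the other positions may be on the array among the 8730 probe sets not listed in the gene table or the 503 naming several genes. Among these 102, 25 (24.5%) were called lower and 21 (20.6%) higher (limma, adjusted p of 0.05), and their median log2 difference was -0.02. Over all 13356 genes 20.6% were called lower and 17.0% higher, so the direct neighbours stood near the background. At 2 steps 29 of 98 genes (29.6%) were called lower and 18 (18.4%) higher. At 3, 4 and 5 steps 16 of 95 (16.8%), 21 of 87 (24.1%) and 18 of 96 (18.8%) were called lower. The higher calls at these steps were 17, 12 and 12. No test was made of these shares against the background.

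Several neighbours picked out for their values fell with the member beside them. AT1G31710, next to AT1G31690, fell 2.35-fold (log2 -1.23 ± 0.09 SE; limma, adjusted p = 1.01e-06). AT4G29030, next to AT4G29020, fell 2.33-fold, AT3G02630, next to AT3G02640, fell 2.29-fold, and AT3G56050, next to AT3G56060, fell 2.06-fold. Also close by were TUB5, a beta-tubulin gene 5 steps from AT1G19960, which fell 3.20-fold (log2 -1.68 ± 0.09 SE), and 3xHMG-box2, a gene of a high mobility group DNA-binding protein 2 steps from AT4G23820, which fell 3.99-fold.

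Other neighbours changed in the opposite direction. AT4G33550 was 3.38-fold lower, with 5.14, 5.08 and 5.29 in the treated arrays, against 6.874, 7.203 and 6.695 in the untreated arrays. On one side of it AT4G33560 rose 4.70-fold (log2 2.23 ± 0.08 SE; limma, adjusted p = 6.05e-09), with an untreated mean of 3.96, and on the other AT4G33540 rose 2.22-fold. AT3G14760 was 4.13-fold lower, with 5.34, 5.83 and 5.44 in the treated arrays, against 7.52, 7.64 and 7.59 in the untreated arrays, and the gene next to it, the sugar transporter gene SWEET2, rose 4.61-fold (log2 2.20 ± 0.12 SE). AT5G54970 was 3.97-fold lower, with 5.36, 5.30 and 5.55 in the treated arrays, against 7.18, 7.56 and 7.44 in the untreated arrays. Beside it the pyruvate decarboxylase gene PDC2, an enzyme of fermentation, rose by 1.49 ± 0.12 SE on the log2 scale. AT5G44400 was 4.97-fold lower, with 6.49, 6.47 and 6.51 in the treated arrays, against 8.80, 9.01 and 8.59 in the untreated arrays. The defensin gene PDF1.2, 2 steps away, rose 24.8-fold (17.3-fold without untreated replicate 2 and 39.5-fold without untreated replicate 3). The lowered genes thus lay among genes of either direction.

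**Figure D4:**
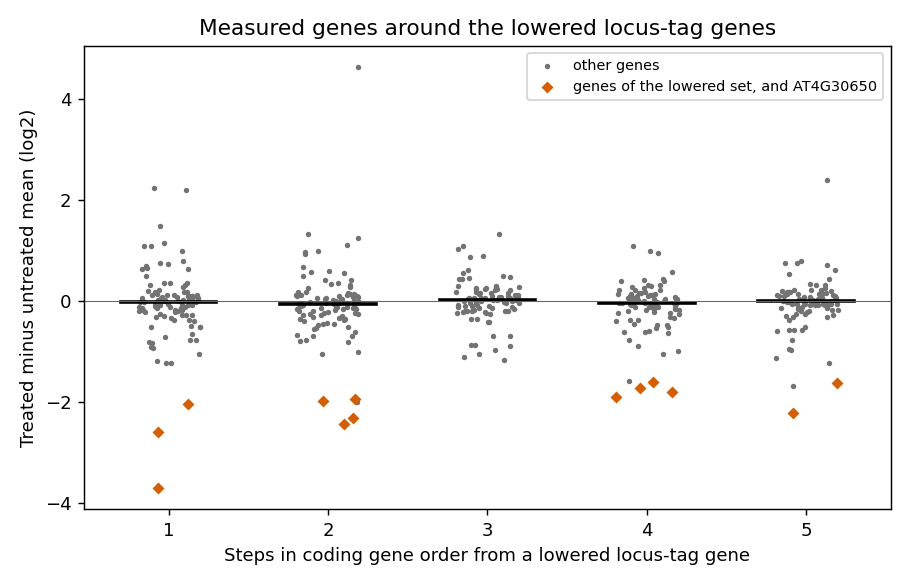
Treated minus untreated mean (log2) of measured genes 1 to 5 coding genes away from a member, with members and AT4G30650 as diamonds, other genes as grey points and the median of the other genes as a bar. The medians stay between -0.05 and 0.03, and the highest grey points at 1 and 2 steps are AT4G33560, SWEET2 and PDF1.2.

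Set beside the locus-tag genes raised under the same fold and overlap conditions, the lowered genes were fewer and their largest differences smaller. The 2 genes left out of the lowered set are not in the counts of members, while none was left out of the raised genes. With those 2, 107 locus-tag genes (0.907%) were lowered this far. Of the 105 members, 39 were lowered at least 4-fold and 3 at least 8-fold, whereas of 146 locus-tag genes raised at least 3-fold (1.24%), 71 were raised at least 4-fold and 14 at least 8-fold. The medians of the treated and untreated means were 6.62 and 8.61 in the members, against 8.59 and 6.38 in the raised genes. Of 1557 genes with a symbol, 36 (2.31%) were lowered at least 3-fold with groups that did not overlap. Their median decrease was 4.04-fold and their median untreated mean 9.02. Over all probe sets, 303 (1.33%) were lowered this far, of which 108 named 1 locus-tag gene, 36 a gene with a symbol, 12 several genes and 147 were not listed in the gene table. No test was made of these shares.

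Function classes were set from words in the gene table's synonyms, and none of the members fell in any of the 14 classes, since their synonyms hold only clone names. Among the other genes, those of cell division, chromatin and microtubules were called lower in 12 of 17 and higher in 1, and those of plastid and photosynthesis lower in 12 of 18 and higher in 2 (lower in 8 with the arrays anchored on the hybridization control sets). Of 68 cell wall genes, 24 were called lower and 16 higher, and of 57 oxidoreductase genes 11 were called lower and 22 higher, where 20.6% and 17.0% of all genes were called. Of 58 genes of glycosyl and methyl transfer 12 were called lower and 20 higher, and of 100 hydrolase and protease genes 21 lower and 24 higher. The other 8 classes held 1 to 29 genes, with at most 5 called lower and at most 7 higher in a class. These counts describe genes with a synonym in words and say nothing of the members.

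Markers of cell types showed leaf tissue, with all 8 mesophyll markers above the 98th percentile of probe sets in both groups. Their summed linear level ran from 81451 to 86774 in treated arrays, against 96399 to 98714 in untreated arrays, with 5 of 8 called lower as deposited 1 of 8 with the arrays anchored on the hybridization control sets, and 3 of 8 with the poly(A) spike sets or without treated replicate 3. Both root hair markers stayed low, with summed levels of 58.4 to 64.8 in treated arrays and 58.7 to 75.2 in untreated arrays. The 3 markers of the stomatal lineage summed to 124 to 127 in treated arrays and 121 to 134 in untreated arrays, with 1 called lower. Both markers of dividing cells fell. AUR1, a mitotic kinase, fell by 0.72 on the log2 scale (limma, adjusted p = 0.000737), and PRL, a replication helicase, by 1.91 (adjusted p = 3.00e-08), so that their summed level was 127 to 138 in treated arrays and 281 to 353 in untreated arrays. The part of dividing cells in the decrease of the 105 genes was not tested, and in whole rosettes fewer cells of a type and less RNA per cell cannot be told apart.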

How the data were processed

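The deposited values are log2 levels per ATH1 probe set of 6 arrays, to which the authors applied RMA, per the submitters' processing notes. Its version and the set of arrays normalized together are not given in the sources used here. Of 22810 probe sets, 64 were control sets, and the other 22746 entered the test without a filter. Gene names came from the platform table, updated through RefSeq's TAIR10.1 gene table; 13513 probe sets named 1 gene, 503 several, and 8730 were not listed. The table held 0 columns of other samples. Differences were fitted with R 4.3.3 and limma 3.58.1 (lmFit, then eBayes, treated minus untreated, two-sided, no covariates), adjusted by Benjamini-Hochberg over all probe sets at 0.05. Python 3.11.15 with pandas 2.3.3 and matplotlib 3.10.9 did the rest. Fold changes are 2 to the power of log2 differences of means. The steps were tested on simulated data.

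The members, lists and function classes were chosen with earlier results of these data known. Members named by rule are the 12 largest decreases, the 4 highest untreated means, the 3 nearest each side of the threshold, the 3 widest ranges within a group and adjacent members; other named genes were chosen after their values were seen. Function classes needed words in the gene tables and held no member. Protein sequences were not used here. Replicates are labelled biological; whether they shared plates was not stated in the labels. Alternatives were other scalings, filters and moderation, the replicate number as a block, another probe set rule and leaving out each array in turn.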

Additional observations from a re-analysis of the deposited data

How the results depend on the processing

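With the arrays anchored on the 18 hybridization control sets, 3185 probe sets were called lower in place of 5059, and the median log2 difference of the 105 genes was -1.80 in place of -1.91. That setting adds a constant to all differences. It also shifts each array by its own amount, which changes the spread within groups. The fall in calls, from 9479 to 7975 in both directions together, is thus not the effect of the constant alone. The rule gave 90 members there, 95 with the 24 poly(A) spike sets, 104 with equal medians and 106 after repeated quantile normalization, and 90 of the 105 were members under all 4 scalings. Leaving out each array in turn gave 93 to 115 members and a median difference of -1.95 to -1.86; 91 of the 105 remained members each time, and the 93 came without untreated replicate 2. Leaving out the dimmest 40% of probe sets gave 101. For the named members, 210 values under the scalings and with each array left out were all below 0, a check added after the data were seen. Of these, 204 lay within 1 SD of the reported value. Leaving out 1 array of so small a group cannot move a difference beyond 1 SD. The members' groups do not overlap, so it cannot bring a difference to 0 either, and those values test nothing. The 6 values beyond 1 SD came from anchoring on the poly(A) spike or hybridization control sets. The scalings moved differences by far less than the decrease the rule required, so values below 0 were bound to follow there too. AUR1, PRL and the 11 neighbouring non-members named as having risen or fallen kept their call in every setting in which they were fitted, also added afterwards. The 11 neighbours were picked for their large differences, so keeping their call was likely beforehand and is no support. With the replicate number as a block, 4904 probe sets were called lower and 4286 higher. Deviations of same-numbered arrays correlated at 0.07, -0.06 and 0.00077, and not every array correlated best with its own number. With 3 arrays per group, such weak correlations cannot settle whether the numbers pair the samples. Under the block 112 genes of the function classes were called lower and 105 higher, in place of 115 and 111. Without moderation 3968 probe sets were called lower. Detection above background was not measured, which limits the sizes of dim genes.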
